A study of Mus musculus with 12 samples.

Results

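The mitochondrial respiratory chain was followed here through the mRNA of 79 nuclear genes in mouse liver. The genes were taken by name: every gene with a single symbol starting with Nduf, Uqcr, Cox4 to Cox8 or Atp5, together with Sdha to Sdhd, Cyc1 and Cycs. They are 79 of 5856 genes with a single symbol. Of these, 73 encode subunits or cytochrome c and the other 6, with symbols starting with Ndufaf, encode factors that assemble complex I. Where a gene had several probe sets (groups of oligonucleotides on the array that report 1 transcript), the one with the highest mean was used.

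The livers came from male C57BL/6 mice of 8 weeks, with 3 mice, each on 1 array, for each of 4 genotypes, 12 arrays in all. Nrf2-null mice lack the transcription factor Nrf2 (gene Nfe2l2). Keap1-KD mice have less Keap1, the protein that holds Nrf2 back, in the whole body, because of the floxed Keap1 alleles they carry. Keap1-HKO mice carry those same alleles and in addition a Cre recombinase driven by the albumin promoter, so that Keap1 is removed in hepatocytes only and other cells of these mice remain Keap1-KD. Wild-type mice were the control of all 3, so the 3 comparisons share the same 3 wild-type arrays. The whole liver was measured, and the RNA of fewer cells of a type cannot be told apart from less RNA per cell.

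The respiratory chain sits in the inner mitochondrial membrane. Complexes I and II pass electrons from NADH and from succinate to ubiquinone, complex III passes them on to cytochrome c, and complex IV passes them to oxygen. Complexes I, III and IV pump protons, and complex V, the ATP synthase, uses the gradient to make ATP. Hepatocytes are rich in mitochondria and draw most of their ATP from this chain. A few subunits are made from mitochondrial DNA, and these are not analysed here. Nrf2 is best known for raising genes of detoxification and antioxidant defense through antioxidant response elements (AREs) in their promoters, while nuclear respiratory factor 1 (NRF1), which is another protein despite its name, and the Ets factor GABP are known to bind promoters of many respiratory chain genes.

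Targeted genes followed the labels. Nfe2l2 was at a log2 intensity of 2.29 to 2.46 in Nrf2-null mice, against 8.81 to 8.94 in wild-type mice. Keap1 was at 5.59 to 5.92 in Keap1-KD mice and 3.34 to 3.39 in Keap1-HKO mice, against 7.80 to 7.97 in wild-type mice. All 8 hepatocyte markers were above an intensity of 100 on all 12 arrays. Arrays of 5 livers had features of their own. Those of Keap1-HKO replicate 1 and of Nrf2-null replicate 1 stood apart from the other mice of their genotypes across all genes, with a mean absolute log2 deviation from them of 0.901 and 0.580 (0.147 to 0.561 on the remaining 10 arrays). Values without this pair, which was left out after seeing the data, are given beside some results. Other values moved without it too. The summed intensity of 10 measured skeletal muscle markers (of 17 listed) was 34688 (replicate 2) and 12913 (replicate 3) in Keap1-HKO mice and 25263 in wild-type replicate 2, and ran from 65 to 106 on the remaining 9 arrays. That of 13 measured exocrine pancreas markers (of 20 listed) was 225315 and 29878 in the same 2 Keap1-HKO mice and ran from 498 to 1355 on the remaining 10 arrays. Without the pair that stood apart, these same 2 Keap1-HKO mice are the only ones left of their genotype. The part of the muscle and pancreas transcripts in the results was not tested.

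No respiratory chain gene passed the test in any genotype. Of the 79 members, 0 were called in Nrf2-null, 0 in Keap1-KD and 0 in Keap1-HKO livers by limma at an adjusted p under 0.05, where 0.41%, 0.0683% and 3.94% of all 5856 genes were called. The adjusted p of the members ran from 0.635 to 0.973 in Nrf2-null mice and from 0.152 to 0.999 in Keap1-HKO mice, and was 1 for each of them in Keap1-KD livers. At an unadjusted p under 0.05 the count was 1 member in Nrf2-null mice (6.92% of all genes), 0 in Keap1-KD mice (2.54%) and 3 in Keap1-HKO mice (18.6%). By the methods' Duncan's multiple range test, which is not adjusted over genes, Atp5k and Cox5b were called higher in Nrf2-null mice (5.4% of all genes called), no member in Keap1-KD mice (2.25%), and Atp5j and Ndufa1 lower in Keap1-HKO mice (12%).

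The differences were also small in size. The median log2 fold change of the 79 members was 0.10 in Nrf2-null mice (0.02 over all genes), −0.03 in Keap1-KD mice (−0.01 over all genes) and 0.04 in Keap1-HKO mice (−0.01 over all genes). In Nrf2-null mice 59 of 79 members (74.7%) were above wild-type mice, against 52.7% of all genes, while in Keap1-KD mice 31 were above (39.2%, against 47.3% of all genes) and in Keap1-HKO mice 44 (55.7%, against 48.8%). The 95% interval of the log2 fold change lay within −1 to 1 for 77, 78 and 77 members for Nrf2-null, Keap1-KD and Keap1-HKO livers, that is, a change of 2-fold lay outside it. For 42, 63 and 42 members it lay within −0.5 to 0.5. The members were measured with less spread than most genes: the SD between mice of 1 genotype had a median of 0.15 (log2), against 0.29 over all genes, with a range from 0.07 (Atp5j2) to 0.59 (Cox6c). The members were also brighter, with a median log2 intensity of 12.8, against 8.39 over all genes. No member had a genotype mean under an intensity of 100, while 896 of the 5856 genes did. The spread was not compared between genes of like intensity.

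**Figure D1:**
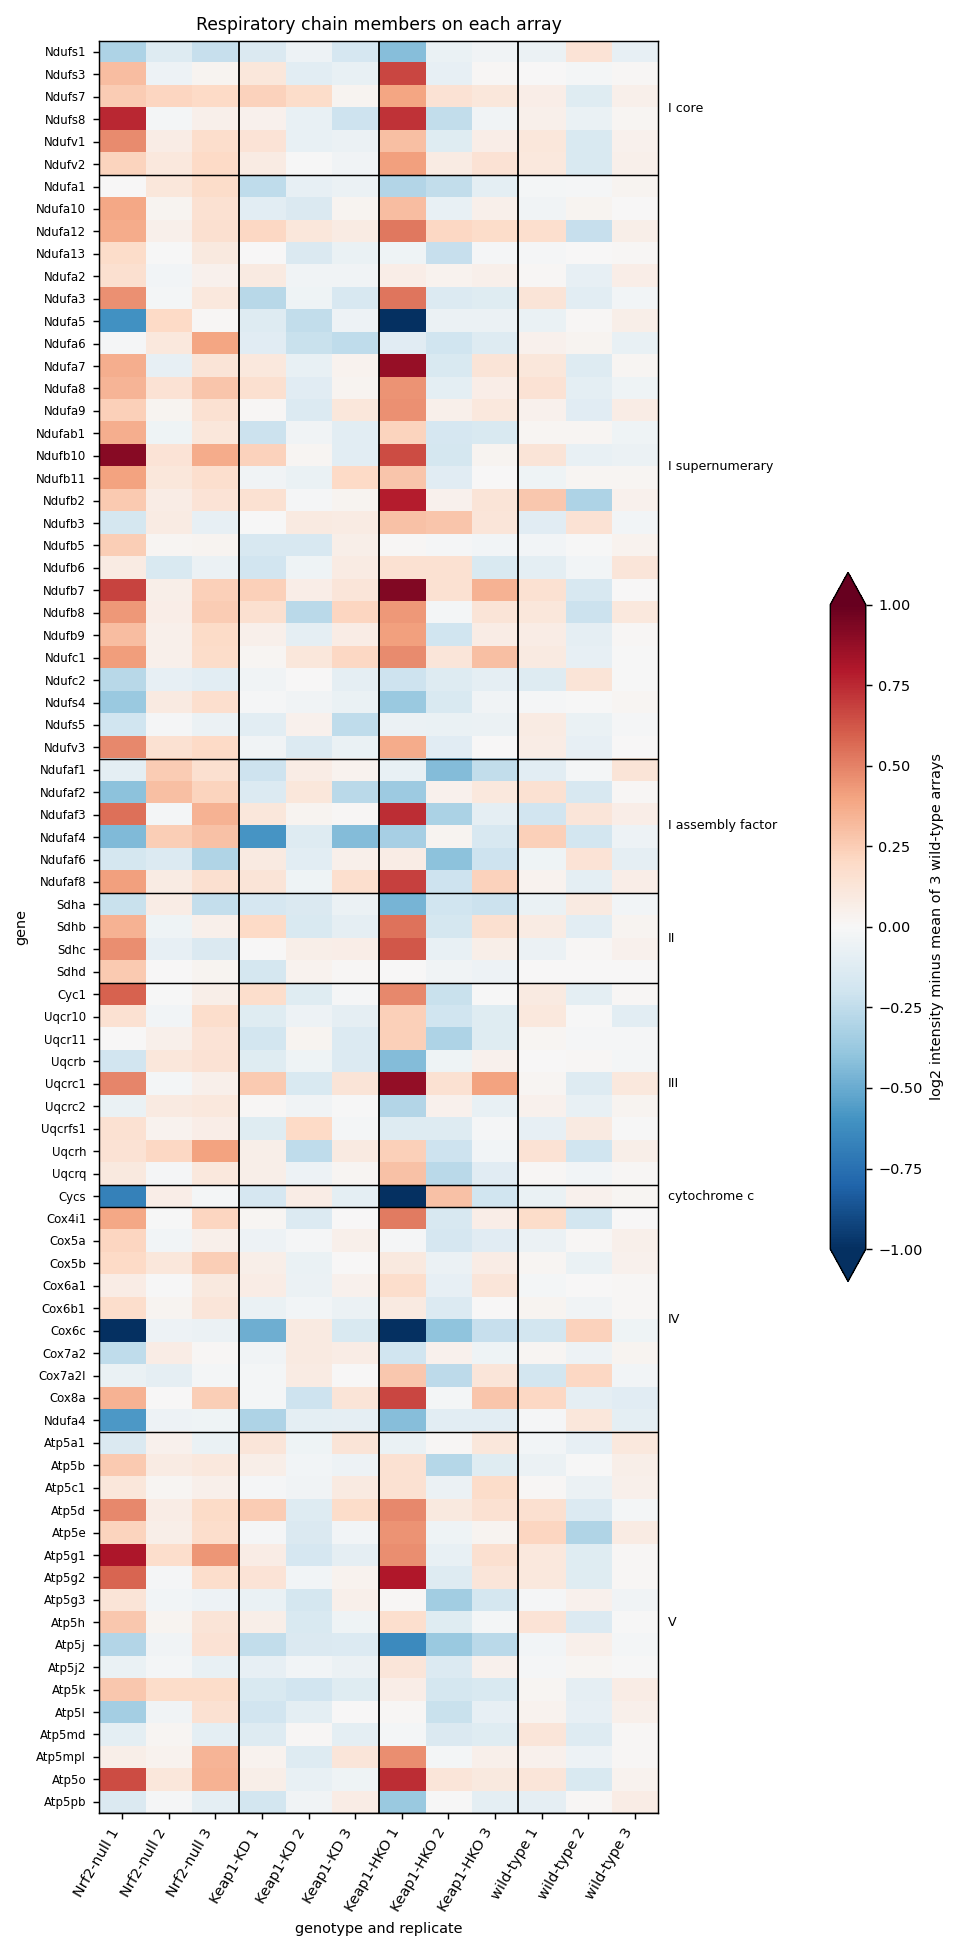
Each row is 1 of the 79 genes, ordered by complex, and each column 1 array; the color gives the log2 intensity minus the mean of the 3 wild-type arrays. Most cells are pale, and the strongest colors stand on Nrf2-null replicate 1 and Keap1-HKO replicate 1, with Cox6c, Cycs and Ndufa5 low on both.

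**Figure D2:**
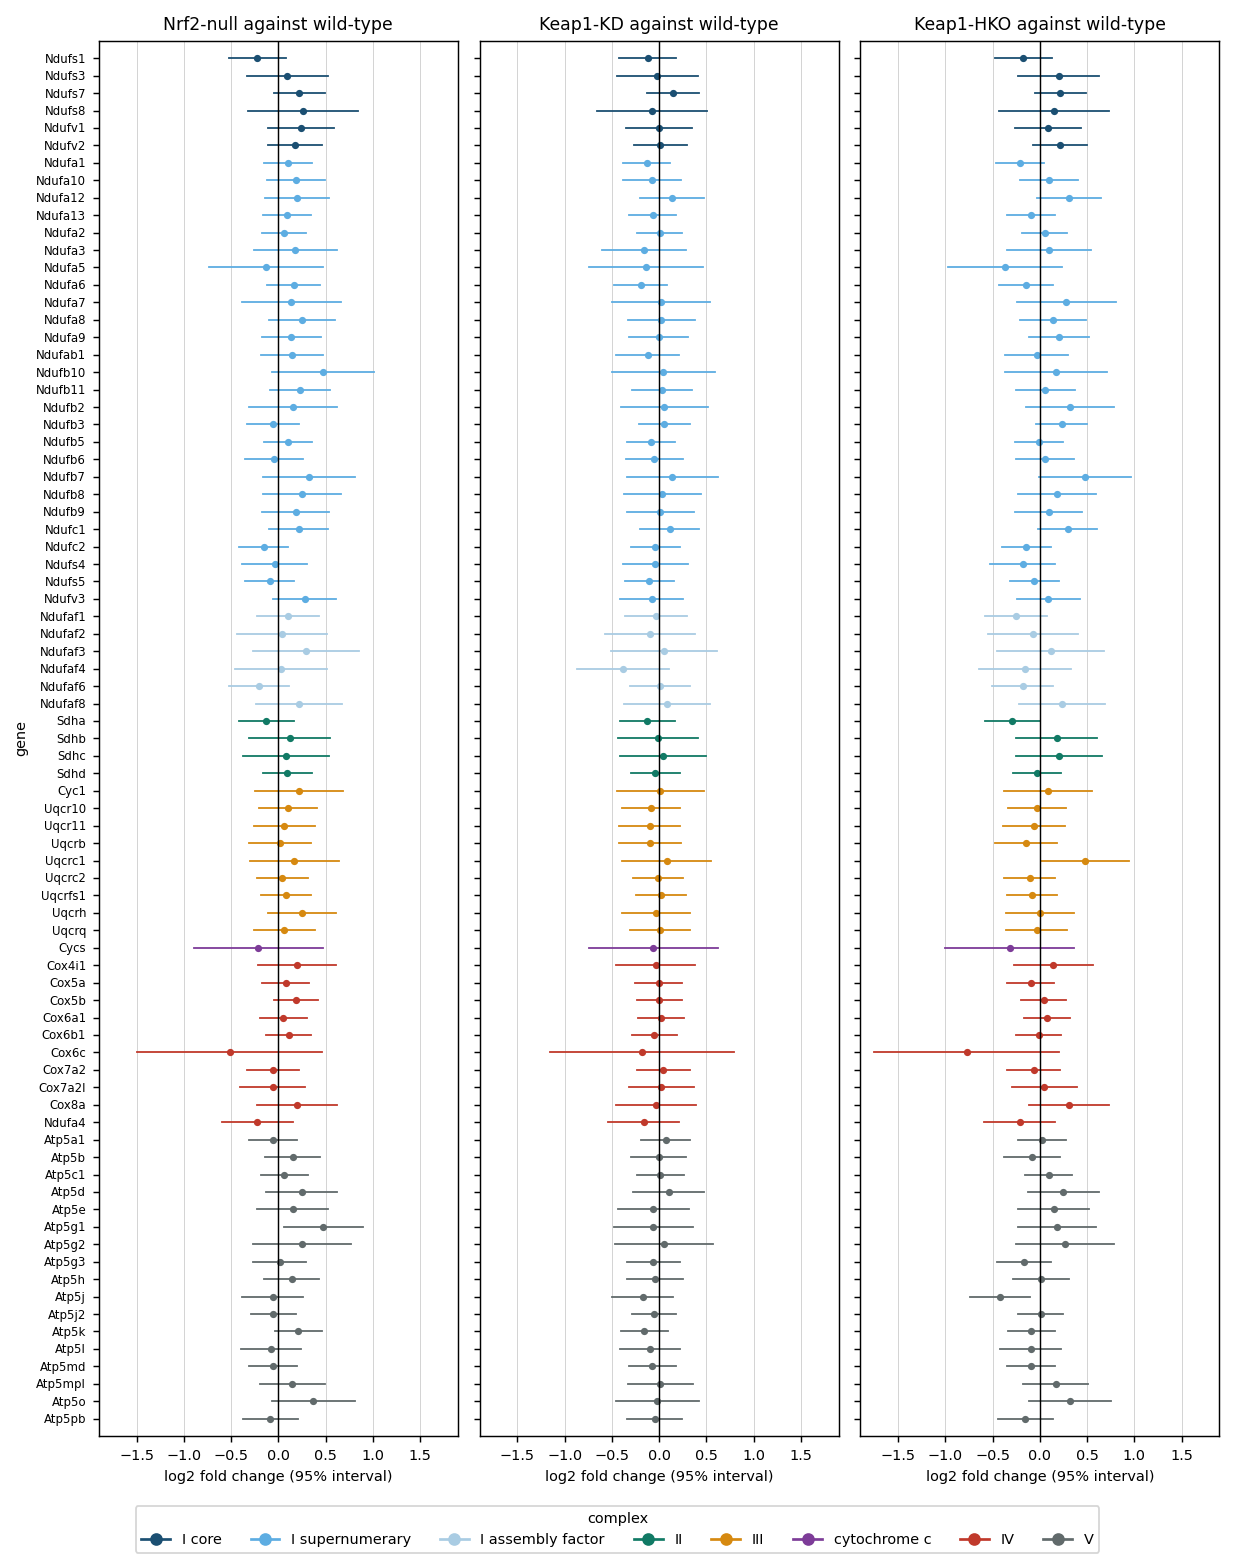
Points are log2 fold changes against wild-type mice with their 95% intervals from limma (n = 3 mice per genotype), for each of the 79 genes. The points run from −0.51 to 0.48 in Nrf2-null mice, −0.39 to 0.15 in Keap1-KD mice and −0.78 to 0.48 in Keap1-HKO mice.

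Complex I, the NADH dehydrogenase, had 6 core and 26 supernumerary subunits among the members. The median log2 fold change of these 32 genes was 0.16 in Nrf2-null mice, −0.01 in Keap1-KD mice and 0.09 in Keap1-HKO mice. Without the pair it was 0.11 in Nrf2-null and −0.03 in Keap1-HKO mice, where 11 of the 32 genes were above wild-type mice in place of 22, so its sign turned in Keap1-HKO mice. The median over all genes without the pair was 0.01 in Nrf2-null and −0.04 in Keap1-HKO mice. Of the core subunits, which carry the NADH site and the iron-sulfur clusters, Ndufs7 lay highest relative to wild-type mice in both Keap1 genotypes. Its log2 intensity was 12.38, 12.34 and 12.33 in Nrf2-null mice, 12.36, 12.31 and 12.16 in Keap1-KD mice and 12.53, 12.27 and 12.24 in Keap1-HKO mice, against 12.20, 12.01 and 12.18 in wild-type mice. All arrays of Nrf2-null and of Keap1-HKO mice were thus above all wild-type arrays, by 16.3% ± 1.34 and 16.5% ± 7.42 (SEM, n = 3) of the mean un-logged intensity, and the adjusted p was 0.823 and 0.351. The log2 fold change of Ndufs7 in Keap1-HKO mice was 0.22, and 0.13 without the pair. Ndufv1, which binds NADH, had log2 fold changes of 0.24, 0.00 and 0.08 for Nrf2-null, Keap1-KD and Keap1-HKO livers. Ndufs1 was the core subunit on the other side, at −0.22, −0.12 and −0.18 in the same genotypes. The log2 fold changes of Ndufs3, Ndufs8 and Ndufv2 lay between −0.08 and 0.26 in all 3 comparisons.

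Among the supernumerary subunits, which surround that core, Ndufb10 stood highest in Nrf2-null mice. It was at 13.11, 12.34 and 12.58 in Nrf2-null mice, against 12.33, 12.13 and 12.15 in wild-type mice, a log2 difference of 0.47 (standard error 0.24, adjusted p = 0.811). The arrays did not overlap, and Nrf2-null replicate 1 was more than 0.5 above the other Nrf2-null arrays. Without the pair the log2 difference was 0.26. Ndufb7 stood highest in Keap1-HKO mice, at 12.80, 12.03 and 12.23, against 12.03, 11.72 and 11.88 in wild-type mice, a log2 difference of 0.48 (standard error 0.22, adjusted p = 0.274). The groups overlapped on 1 array, and the log2 difference was 0.25 without the pair. On the low side of Keap1-HKO mice stood Ndufa5, at 10.89, 11.84 and 11.84, against 11.83, 11.91 and 11.95 in wild-type mice, a log2 difference of −0.37 (standard error 0.27, adjusted p = 0.445), and −0.06 without the pair. Only replicate 1 was far from wild-type mice.

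The 6 assembly factors of complex I, which are not part of the finished complex, had a median standard error of 0.21, against 0.15 over the 79 members. Ndufaf4 had the lowest log2 fold change of the members in Keap1-KD mice. It was at 8.42, 8.88 and 8.58 in Keap1-KD mice, against 9.25, 8.83 and 8.96 in wild-type mice, a log2 fold change of −0.39 with a 95% interval of −0.87 to 0.10 (adjusted p = 1), and 1 array of Keap1-KD mice lay among those of wild-type mice. Median log2 fold changes of the 6 were 0.07, −0.01 and −0.12 for Nrf2-null, Keap1-KD and Keap1-HKO livers. Without the pair they were 0.18 in Nrf2-null and −0.13 in Keap1-HKO livers.

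Complex II, the succinate dehydrogenase, also belongs to the citric acid cycle, and all 4 of its subunits were measured. Sdha, the flavoprotein that binds succinate, was at 11.94, 12.21 and 12.20 in Keap1-HKO mice, against 12.35, 12.50 and 12.38 in wild-type mice. All arrays of Keap1-HKO mice lay below all wild-type arrays, by −18.2% ± 4.80 (SEM, n = 3) of the mean un-logged intensity and a log2 difference of −0.29 (standard error 0.13), with an unadjusted p of 0.0493 by limma and an adjusted p of 0.266. Its lower probe set gave 0.12 in place of −0.29, so the probe sets of Sdha differed in sign. The iron-sulfur subunit Sdhb and the membrane anchors Sdhc and Sdhd had log2 fold changes of 0.18, 0.20 and −0.03 in Keap1-HKO mice, all of them with overlapping arrays. Without the pair Sdhb and Sdhc were both at −0.01.

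Complex III, the cytochrome bc1 complex, had 9 members, and all 9 were above wild-type mice in Nrf2-null mice, by 0.02 to 0.25 on the log2 scale with no call. Uqcrc1, a core protein of the matrix side, had the highest log2 fold change of the members in Keap1-HKO mice. It was at 12.82, 12.10 and 12.35 in Keap1-HKO mice, against 11.96, 11.82 and 12.05 in wild-type mice, 42.1% ± 21.6 (SEM, n = 3) higher in mean un-logged intensity. The arrays did not overlap, and the log2 fold change was 0.48 (95% interval 0.01 to 0.95), with an unadjusted p of 0.0466 by limma and an adjusted p of 0.262. It was 0.28 without Keap1-HKO replicate 1 (adjusted p = 0.530). Its partner Uqcrc2 had a log2 fold change of −0.11 there, the Rieske iron-sulfur protein Uqcrfs1 −0.09, and the heme protein Cyc1 0.09. Cycs, the mobile cytochrome c itself, was at 12.96, 14.32 and 13.83 in Keap1-HKO mice, against 13.96, 14.07 and 14.05 in wild-type mice. Its Keap1-HKO arrays lay on both sides of wild-type mice, with a 95% interval from −1.01 to 0.36 around a log2 fold change of −0.32, which was 0.05 without the pair.

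Complex IV, cytochrome c oxidase, had 10 members, with the median at 0.07, −0.02 and 0.01 for Nrf2-null, Keap1-KD and Keap1-HKO livers (−0.06 in Keap1-HKO mice without the pair). Cox6c had the lowest log2 fold change of all members in both Nrf2-null and Keap1-HKO mice. It was at 11.55, 12.93 and 12.92 in Nrf2-null mice and 11.28, 12.58 and 12.75 in Keap1-HKO mice, against 12.79, 13.21 and 12.94 in wild-type mice. Replicate 1 of both genotypes lay below all other arrays. The log2 fold changes of −0.51 and −0.78 had a standard error of 0.44 each and adjusted p of 0.823 and 0.355, and were −0.06 and −0.31 without the pair. The other nuclear subunits were steadier. Cox5a and Cox5b, which sit on the matrix side, had log2 fold changes of 0.08 and 0.19 in Nrf2-null mice and −0.10 and 0.04 in Keap1-HKO mice. Cox5b was at 14.36, 14.27 and 14.40 in Nrf2-null mice, against 14.18, 14.09 and 14.20 in wild-type mice, with no overlap (adjusted p = 0.823).

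Several subunits of complex IV exist as isoforms, and those measured here were the forms found in liver. Cox4i1, Cox6a1, Cox6b1, Cox7a2 and Cox8a had log2 fold changes of 0.14, 0.07, −0.01, −0.07 and 0.31 in Keap1-HKO mice, and all 5 overlapped wild-type mice. Cox7a2l was at 0.04. Ndufa4, once counted as a subunit of complex I, was at 12.95, 13.27 and 13.26 in Keap1-HKO mice, against 13.36, 13.48 and 13.27 in wild-type mice. These arrays did not overlap, but replicate 2 of Keap1-HKO mice lay only narrowly below the lowest wild-type array (log2 fold change −0.21, adjusted p = 0.473).

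Complex V, the ATP synthase, had 17 members, with a median log2 fold change of 0.14 in Nrf2-null, −0.05 in Keap1-KD and 0.01 in Keap1-HKO livers (0.08 in Nrf2-null and −0.05 in Keap1-HKO mice without the pair). Atp5a1, Atp5b and Atp5c1 encode the alpha, beta and gamma subunits of the catalytic F1 part. In Keap1-HKO mice they had log2 fold changes of 0.02 (95% interval −0.24 to 0.28), −0.08 (−0.38 to 0.21) and 0.09 (−0.15 to 0.34). The other F1 genes Atp5d and Atp5e were at 0.24 and 0.15 there. For both, Keap1-HKO replicate 1 lay above the mean of the other Keap1-HKO mice, by 0.36 and 0.45. Atp5g1, Atp5g2 and Atp5g3 encode the same mature c subunit of the membrane ring. Atp5g1 was at 13.02, 12.40 and 12.66 in Nrf2-null mice, against 12.33, 12.10 and 12.23 in wild-type mice. All Nrf2-null arrays were above all wild-type arrays, by 41.0% ± 18.0 (SEM, n = 3), with a log2 difference of 0.48 (standard error 0.19), an unadjusted p of 0.0292 by limma and an adjusted p of 0.635. The log2 difference was 0.31 without Nrf2-null replicate 1 (adjusted p = 1). The log2 fold changes of Atp5g2 and Atp5g3 in these mice were 0.25 and 0.02 (0.08 for Atp5g2 without the pair). In the peripheral stalk, Atp5o (the oligomycin sensitivity subunit) was at 0.37 in Nrf2-null and 0.32 in Keap1-HKO mice, and at 0.23 and 0.11 without the pair.

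Atp5j, the F6 subunit of that stalk, had the lowest adjusted p of all members in Keap1-HKO mice. It was at 12.59, 12.85 and 12.95 in Keap1-HKO mice, against 13.19, 13.27 and 13.20 in wild-type mice. No arrays overlapped, and the mean un-logged intensity differed by −25.2% ± 5.44 (SEM, n = 3), with a log2 fold change of −0.43 (95% interval −0.74 to −0.11) with an unadjusted p of 0.0140 by limma and an adjusted p of 0.152. In Keap1-KD mice Atp5j was at 12.98, 13.07 and 13.08, also below each wild-type array, with a log2 fold change of −0.18 (adjusted p = 1), and in Nrf2-null mice at 12.92, 13.19 and 13.37, on both sides of wild-type mice.

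Members with no overlap between the 3 arrays of a genotype and the 3 of wild-type mice numbered 13 above and 3 below in Nrf2-null mice, where 12.1% and 8.76% of all genes did so. The 13 are 16.5% of the members and the 3 are 3.8% of them. In Keap1-KD mice there were 0 above (7.02% of all genes) and 7 below (8.86% of members, 8.21% of all genes), and in Keap1-HKO mice 4 above (5.06% of members, 12.7% of all genes) and 8 below (10.1% of members, 14.9% of all genes). Those with the lowest p in Nrf2-null mice were Atp5g1, Ndufb10, Atp5k, Ndufv3 and Ndufs7, all above. In Keap1-KD mice they were Ndufa6, Atp5k, Atp5j, Ndufa1 and Uqcrb, all below. In Keap1-HKO mice Atp5j and Sdha were below and Uqcrc1, Ndufc1 and Ndufa12 above.

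The design also orders the genotypes by Nrf2 activity, with Nrf2-null below wild-type mice and Keap1-KD, then Keap1-HKO mice above them, and a linear trend gives the log2 change per genotype step. No member was called for it (0 of 79, where 9.2% of all genes were called), and the lowest adjusted p was 0.101, for Atp5k. At an unadjusted p under 0.05 there were 5 members lower with each step (6.33% of members, 12.1% of all genes) and 1 higher (1.27% of members, 9.85% of all genes). The 1 higher was Ndufb3, a supernumerary subunit of complex I, with 0.09 per step (adjusted p = 0.190).

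The 5 lower were Atp5j, Atp5k, Ndufa1, Ndufa6 and Ndufaf1. Atp5k, the e subunit that helps ATP synthase to form dimers, was at 13.25, 13.16 and 13.17 in Nrf2-null, 13.00, 12.89 and 13.05 in wild-type, 12.83, 12.79 and 12.86 in Keap1-KD and 13.05, 12.80 and 12.82 in Keap1-HKO mice. All Nrf2-null arrays were above and all Keap1-KD arrays below the wild-type arrays, and the change per step was −0.11 (adjusted p = 0.101). Other probe sets of Atp5k gave smaller changes. With the mean over its probe sets the change per step was −0.08 (adjusted p = 0.236 by limma), and with its lowest probe set −0.06 (adjusted p = 0.418). Ndufa1, a small membrane subunit of complex I, was at 13.88, 13.99 and 14.06 in Nrf2-null, 13.85, 13.86 and 13.90 in wild-type, 13.62, 13.79 and 13.81 in Keap1-KD and 13.58, 13.63 and 13.78 in Keap1-HKO mice. Both Keap1 genotypes lay below all wild-type arrays. Ndufa6, another supernumerary subunit of complex I, was at 12.47, 12.59 and 12.87 in Nrf2-null, 12.52, 12.51 and 12.41 in wild-type, 12.37, 12.26 and 12.22 in Keap1-KD and 12.37, 12.28 and 12.36 in Keap1-HKO mice, again with both Keap1 genotypes below. Ndufaf1, an assembly factor, was at 8.87, 9.22 and 9.13 in Nrf2-null, 8.86, 8.95 and 9.10 in wild-type, from 8.76 to 9.04 in Keap1-KD and 8.89, 8.54 and 8.72 in Keap1-HKO mice, with overlap between all neighbours.

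**Figure D3:**
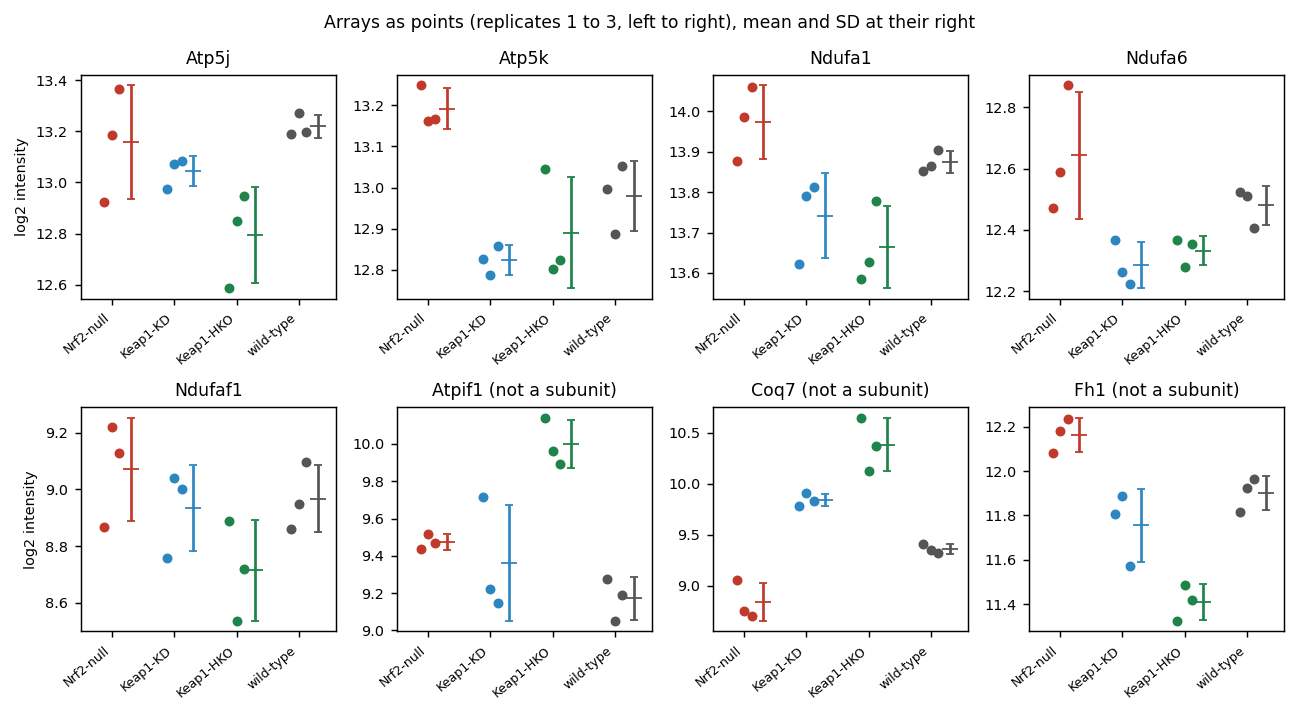
Points are log2 intensities of single arrays, with the mean and SD of 3 mice at their right, for 5 members with a lower value per step and 3 genes of related pathways. Coq7 differs by genotype without overlap between any pair of genotypes, while the 5 members differ by less than 0.5 between the genotype means.

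The largest deviations of the members lay on a pair of arrays. Keap1-HKO replicate 1 had 17 members more than 0.5 (log2) above the mean of the other Keap1-HKO mice and 3 more than 0.5 below it, and Nrf2-null replicate 1 had 6 above and 7 below the mean of the other Nrf2-null mice. On both arrays Cox6c was lower, by −1.39 on Keap1-HKO replicate 1 and −1.37 on Nrf2-null replicate 1, and Cycs by −1.11 and −0.70. Ndufs8 was higher by 0.87 and 0.73. Across the 79 members the deviations of these arrays had a Pearson r of 0.858 and a Spearman rho of 0.785, and 67 of 79 had the same sign. Across all genes r was 0.787 and rho 0.811, with 85.9% of the same sign. These are correlations across genes, which are not independent replicates, and the points share the probe sets.

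**Figure D4:**
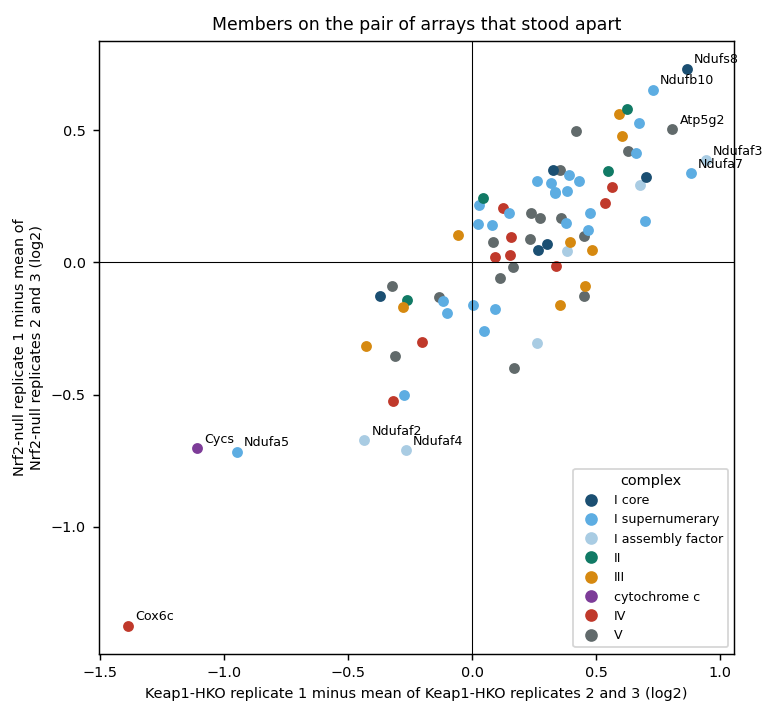
Each point is 1 of the 79 members, placed by its deviation on Keap1-HKO replicate 1 (x axis) and Nrf2-null replicate 1 (y axis) from the mean of the other 2 arrays of the same genotype, in log2. The points lie along a rising line, with Cox6c at the lower left end and Ndufs8 at the upper right.

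That pair was then left out, which was decided after seeing the data. Keap1-HKO mice are then represented only by replicates 2 and 3, both with muscle and pancreas transcripts. The median SD of the members was 0.10 without the pair, and the standard errors were smaller, at a median of 0.11 in Nrf2-null and Keap1-HKO mice. The median log2 fold change of the members in Keap1-HKO mice was then −0.05, so its sign turned, and that over all genes was −0.04. Above wild-type mice were 25 of 79 members (31.6%), against 44.5% of all genes. In Nrf2-null mice the member median was 0.08 (0.01 over all genes), with 63 of 79 above (79.7%, against 52.9% of all genes). In Keap1-HKO mice 0 members were called (11.5% of all genes), with Atp5j lowest at an adjusted p of 0.0619. For the trend, 5 of 79 members (6.33%) were called lower, where 12% of all genes were, and 0 higher, where 8.74% of all genes were. The 5 were Atp5k (−0.12 per step, adjusted p = 0.0208), Atp5j (−0.13, adjusted p = 0.0209), Ndufaf1 (−0.17, adjusted p = 0.0213), Ndufa6 (−0.14, adjusted p = 0.0244) and Ndufa1 (−0.11, adjusted p = 0.0466).

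The 3 arrays with muscle transcripts were left out in the same way. This leaves Keap1-HKO replicate 1, an array that stood apart, as the only one of its genotype, and its spread is then assumed to be that of the other genotypes. In that fit 11 of 79 members (13.9%) were called in Keap1-HKO mice, 8 higher and 3 lower, where 38.5% of all genes were called. Atp5j was among the lower ones (−0.61), with Cycs and Ndufa5, and Uqcrc1 among the higher ones (0.82). In this fit the change per step was −0.06 for both Atp5k and Ndufaf1, −0.19 for Atp5j, −0.13 for Ndufa1 and −0.10 for Ndufa6.

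**Figure D5:**
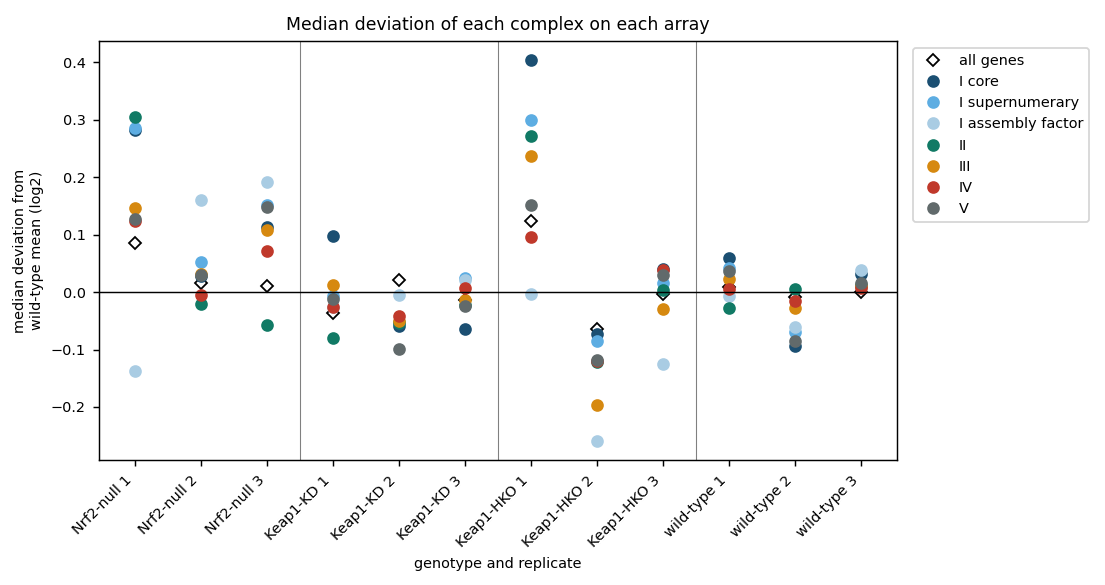
Points give the median deviation from the wild-type mean (log2) of the members of each complex on each array, and open diamonds that of all 5856 genes; cytochrome c, with 1 gene, is not drawn. Core subunits of complex I lie highest on Keap1-HKO replicate 1, at 0.40. Every complex drawn lies below 0 on Keap1-HKO replicate 2 and on Keap1-KD replicate 2, where all genes lie at −0.06 and 0.02.

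Genes that work next to the chain were taken from lists chosen by function. Of 28 measured assembly and accessory factors outside the rule, 1 was called in Keap1-HKO mice, where 3.94% of all genes were called. This was Atpif1, which encodes the inhibitor of the ATP synthase. It was at 10.14, 9.96 and 9.89 in Keap1-HKO mice, against 9.28, 9.05 and 9.19 in wild-type mice, and rose with a log2 difference of 0.83 (standard error 0.16, adjusted p = 0.0181, and 0.0191 without the pair). In Nrf2-null mice Atpif1 was at 9.435, 9.516 and 9.47, also above all wild-type arrays though not called. Keap1-KD mice, at 9.715, 9.224 and 9.144, overlapped wild-type mice. Atpif1 thus did not follow the order of the genotypes. Cox11, which delivers copper to complex IV, was at 7.69, 7.64 and 7.61 in Keap1-HKO mice, against 8.05, 8.16 and 8.15 in wild-type mice, and fell over the genotypes by 0.14 per step (adjusted p = 0.0444). Of the 28 it was the only 1 called for the trend, where 9.2% of all genes were called.

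Of 14 measured carriers and ubiquinone enzymes, Coq7 alone was called, in Keap1-HKO mice and for the trend. Over all genes, 3.94% were called in Keap1-HKO mice and 9.2% for the trend. Coq7, a hydroxylase of the synthesis of ubiquinone, the carrier between complexes I and III, was at 9.05, 8.76 and 8.71 in Nrf2-null, 9.41, 9.35 and 9.32 in wild-type, 9.79, 9.91 and 9.83 in Keap1-KD and 10.65, 10.13 and 10.37 in Keap1-HKO mice. It rose in Keap1-HKO livers with a log2 difference of 1.02 (standard error 0.15, adjusted p = 0.00481, and 0.000766 without the pair) and over the genotypes by 0.51 per step (adjusted p = 0.000103). Of 12 measured citric acid cycle enzymes none was called in a comparison with wild-type mice. For the trend 1 was called, where 9.2% of all genes were called. Fh1, the fumarase that takes up the product of complex II, fell by 0.24 per step (adjusted p = 0.00333). It was at 12.08, 12.18 and 12.23 in Nrf2-null, 11.82, 11.92 and 11.96 in wild-type, 11.81, 11.89 and 11.57 in Keap1-KD and 11.32, 11.49 and 11.42 in Keap1-HKO mice.

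Promoters were searched for 3 motifs, on both strands, in RefSeq sequence of build GRCm38.p6 from 250 bases before to 50 bases after each start site, which was at hand for 66 of the 79 members. The ARE core TGACNNNGC occurred in 10 of the 66 (15.2%), against 14.0% of 27025 genes. The core GCATGCGC of the NRF1 motif occurred in 11 (16.7%), against 3.05% of genes, and the Ets motif CCGGAAG in 19 (28.8%), against 9.93% of genes. The 10 members with an ARE core had log2 fold changes from −0.21 to 0.32 in Keap1-HKO mice, with a median of 0.10 (−0.01 without the pair), against a median of 0.01 (−0.05 without the pair) for the 56 other members with a sequence. A match of letters does not show that a factor binds there.

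Of the 10 members with an ARE core, Ndufa1, Ndufv2 and Atp5o are shown as examples. They include the lowest and the highest log2 fold change of the 10 in Keap1-HKO mice. The ARE core is in capitals with 20 bases on either side, 5′ to 3′ on the strand of the gene. The core begins at position −105, −68 and −182 from the start site.
Ndufa1, chrX:37191315-37191363, minus strand: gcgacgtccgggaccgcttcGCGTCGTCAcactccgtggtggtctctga
Ndufv2, chr17:66101599-66101647, minus strand: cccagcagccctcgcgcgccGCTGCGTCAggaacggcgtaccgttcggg
Atp5o, chr16:91931784-91931832, minus strand: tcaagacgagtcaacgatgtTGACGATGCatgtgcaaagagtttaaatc

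In Ndufa1 and Ndufv2 the core reads on the opposite strand. In Keap1-HKO mice these 3 genes had log2 fold changes of −0.21, 0.21 and 0.32, none of them called. The NRF1 core is shown in capitals for Cycs, Ndufa6, Sdhb and Atp5k, 1 gene each of cytochrome c and complexes I, II and V, where it begins at position −60, −83, −54 and −48.
Cycs, chr6:50566602-50566649, minus strand: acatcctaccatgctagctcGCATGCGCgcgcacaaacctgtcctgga
Ndufa6, chr15:82354347-82354394, minus strand: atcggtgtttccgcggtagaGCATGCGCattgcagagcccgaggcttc
Sdhb, chr4:140961197-140961244, plus strand: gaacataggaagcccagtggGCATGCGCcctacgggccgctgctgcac
Atp5k, chr5:108434420-108434467, minus strand: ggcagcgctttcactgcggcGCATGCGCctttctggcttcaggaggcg

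Their log2 fold changes in Keap1-HKO mice were −0.32, −0.15, 0.18 and −0.09. In Atp5k a second match, on the opposite strand, overlaps the core and begins at position −50.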

How the data were processed

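Liver RNA of 12 mice was hybridized to Affymetrix arrays, 1 per mouse, 3 per genotype, grouped by the labels. The authors made the deposited log2 intensities with gcRMA, a method that subtracts background by probe sequence, puts the arrays on the same quantiles and gives 1 value per probe set. They kept those over an intensity of 100 for 1 or more genotypes. Values lay between 2.29 and 16.8 and the medians of the arrays between 8.22 and 8.37. The number of arrays limits the precision.

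Of 9622 probe sets, 8554 with a single symbol were used and gave 5856 genes. Left out were 371 with several symbols and 697 with none. Of the 79 members, 43 had several probe sets. All were fitted in 1 model over the 4 genotypes with limma 3.58.1 (lmFit and eBayes, R 4.3.3), p was adjusted by Benjamini and Hochberg over 5856 genes, and genes were called under 0.05. The trend had equal steps, with wild-type between Nrf2-null and Keap1-KD mice and Keap1-HKO last. Percent changes are of mean un-logged intensities, with the SEM of that genotype alone. The fit was tried on simulated data with noise drawn independently for each gene and array, so deviations shared between arrays were not covered. Members and gene lists were chosen with earlier results of these data known. Named are members called, the highest and lowest 3 per comparison, core and isoform members and the 5 non-overlapping members of lowest p. Muscle and pancreas markers, and leaving out the pair or the 3 arrays with muscle transcripts, followed from the data. Alternatives were filters, scalings, probe set choices, forms of the test, a replicate block, array weights and each array left out in turn. The labels do not tell of litters or batches.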

Additional observations from a re-analysis of the deposited data

How the results depend on the processing

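No member was called in Keap1-KD mice under any of 25 alternatives. In Nrf2-null mice 10 (12.7%, against 23.5% of all genes) were called with array quality weights, whose estimate stopped before it converged, and 2 by Duncan's multiple range test, and 0 under the other 23. In Keap1-HKO mice 2 were called by Duncan's test, 2 with array weights estimated gene by gene (Atp5j and Ndufaf1, 2.53% of members against 18.4% of all genes) and 11 without the 3 arrays with muscle transcripts (13.9% against 38.5%), and 0 under the other 22. For the trend 2 were called with a trended and robust variance (2.53%, against 9.46% of all genes), 6 with array quality weights (7.59% against 15.8%), 8 with gene-by-gene weights (10.1% against 27.2%), 5 without the pair that stood apart (6.33% against 20.8%) and 3 without the arrays with muscle transcripts (3.8% against 29.5%). Leaving out single arrays gave 0 calls in each comparison with wild-type mice and 0 to 1 for the trend, the 1 being Atp5k without Keap1-HKO replicate 1. Gene-by-gene weights and both sets of left-out arrays were chosen after seeing the data. The cause of these differences was not tested.

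The member median ran from 0.08 to 0.16 in Nrf2-null, −0.05 to 0.00 in Keap1-KD and −0.09 to 0.18 in Keap1-HKO livers. In Keap1-HKO mice it was negative after a second quantile normalization (−0.02), with either kind of array weights (−0.09 and −0.03) and without Keap1-HKO replicate 1, alone or with its pair (−0.05). The median over all genes was 0.03, −0.07, −0.02 and −0.04 in these settings. Sdha in Keap1-HKO mice turned to 0.12 with the probe set of the lowest mean. Of 43 members with several probe sets, all had 1 sign for 39 in Nrf2-null, 31 in Keap1-KD and 37 in Keap1-HKO livers, and 0 of 141 probe sets were called. With the replicate number as a block 0 members were called in any comparison, and 381 genes in Keap1-HKO mice, against 231. The labels do not say whether arrays of 1 number share a litter, batch or day. Of 18 same-numbered pairs 15 correlated above 0.1 (−0.157 to 0.787) and 10 of 12 arrays correlated best with their own number. Some pairs of unlike number also correlated above 0.1, and others negatively. The pairs share arrays, so the correlations are not independent and cannot decide whether arrays were paired. They come from the data and not from the design. The main fit kept the one-way design over genotypes of the methods, and the block was run as an alternative. With 3 mice per genotype, changes smaller than the intervals span could not be detected.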

Other observations

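The mitochondrial ribosome, which translates the subunits made from mitochondrial DNA, had 76 genes measured. Its median log2 fold change was 0.17 in Nrf2-null, 0.04 in Keap1-KD and 0.18 in Keap1-HKO livers (0.09 in Nrf2-null and −0.03 in Keap1-HKO livers without the pair that stood apart). None was called in these comparisons by limma. At an unadjusted p under 0.05, 1 was higher in Nrf2-null mice (1.32% of the list, against 6.92% of all genes). In Keap1-HKO livers 7 were higher and 3 lower (13.2% against 18.6%). For the trend Mrpl39 and Mrps22 were called, where 9.2% of all genes were called. Both fell, by 0.15 per step each (adjusted p = 0.0274 and 0.0470). Of 9 measured regulators of mitochondrial biogenesis none was called. At an unadjusted p under 0.05, 1 was lower in Keap1-HKO mice (11.1% of the list, against 18.6% of all genes).

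Sdhd had exactly the same deposited value, 11.2654 on the log2 scale, on 5 of 12 arrays, all 3 wild-type arrays among them. A value shared by 3 or more arrays occurred in 3 of 79 members and in 173 of 5856 genes (2.95%). The SD of Sdhd within wild-type mice is therefore 0, and the source of the repeated value was not tested.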
